A study of Mus musculus with 14 samples.

Results

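Transcripts of 10 genes of collagen fibril formation were measured in mouse hearts, namely 7 chains of the fibrillar collagens (Col1a1, Col1a2, Col3a1, Col5a1, Col5a2, Col5a3 and Col11a1), the collagen chaperone gene Serpinh1 and the hydroxylase genes P4ha1 and Plod2. They were taken by name, and all 10 had a row among the 51912 genes counted and passed the filter on low counts. The hearts came from mice of the C57BL/6J background, either labelled as knockouts of Clk3 (KO), a kinase of the CLK family that phosphorylates splicing factors, or wild type (WT). They had undergone TAC, taken here as transverse aortic constriction, an operation that puts a pressure load on the left ventricle, or sham surgery. There were 4 KO TAC, 2 WT TAC, 4 KO sham and 4 WT sham libraries. Age was 10 weeks in all TAC libraries, and 11 weeks in 2 and 10 weeks in the other 2 libraries of each sham group. The labels name neither the allele nor the cells in which Clk3 is deleted, and they give neither sex nor time after surgery. Nothing says whether the libraries of a group were made from different mice, so the p-values rest on the scatter among libraries, part of which may be technical.

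Fibrillar collagens are made as procollagen chains that fold into a triple helix in the endoplasmic reticulum. Prolyl hydroxylation makes the helix stable at body temperature, and the chaperone HSP47, the product of Serpinh1, binds the folded helix and travels with it towards the Golgi apparatus. Outside the cell the propeptides are cut off and the helices assemble into fibrils whose crosslinks depend on hydroxylated lysines. In the heart, fibroblasts are the main makers of these chains, and pressure load is known to increase fibrillar collagen.

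The libraries held 11385818 to 20369637 gene counts. Clk3 was still counted in every KO library (50.7 to 67.4 CPM, the count scaled to the size of its library), and the gene counts do not show which part of it the allele removes. The library labelled WT TAC 1 lay within that range at 54.2 CPM, while the other 5 WT libraries held 73.2 to 96.0 CPM. It also matched the KO libraries in the pseudogene Gm8730 (66.8 CPM, against 57.4 to 67.1 CPM in KO and 1.26 to 1.63 CPM in the other WT libraries). Calls that rest on WT TAC were therefore recomputed without this library, and the values without it stand beside the results or in a later sentence. Its label was kept otherwise, and no fit counted it as a KO library. Reads outside annotated features made up 13.3% ± 0.87 in KO TAC, 12.8% ± 2.92 in WT TAC, 17.98% ± 0.833 in KO sham and 15.8% ± 1.37 in WT sham (SD, n = 4, 2, 4 and 4). KO sham 4 and KO TAC 3 stood apart from their groups in the clock gene Arntl (24.3 CPM, against 4.40 to 5.50 in the other KO sham libraries, and 9.02 CPM, against 22.1 to 23.2 in the other KO TAC libraries). In WT libraries Arntl was 18.2 and 23.7 CPM after TAC and 4.53 to 9.38 CPM after sham surgery. Apart from KO sham 4 and KO TAC 3, every TAC library thus exceeded every sham library in Arntl. The part of this in the TAC differences was not tested. Atrial myocyte markers summed to at most 5.05 CPM in any library, and ventricular and pan-myocyte markers to at least 39594 CPM.

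Windows upstream of the genes' start sites were taken from RefSeq (GRCm38.p6), which matched 7 of the 10 genes. The 250 bases before the start of 4 of them follow, none overlapping an annotated exon of its gene. Col3a1 and Col5a1 are chains that were lower in KO than in WT after TAC, while Serpinh1 and P4ha1 were higher after TAC in KO hearts and did not pass between the genotypes. Capitals mark matches, on either strand, to the TATA box (TATAAA), the CCAAT box (CCAAT), the GC box (GGGCGG), the SMAD box (CAGAC) and the hypoxia response core (ACGTG or GCGTG).
Col3a1, chr1:45311288-45311537, plus strand: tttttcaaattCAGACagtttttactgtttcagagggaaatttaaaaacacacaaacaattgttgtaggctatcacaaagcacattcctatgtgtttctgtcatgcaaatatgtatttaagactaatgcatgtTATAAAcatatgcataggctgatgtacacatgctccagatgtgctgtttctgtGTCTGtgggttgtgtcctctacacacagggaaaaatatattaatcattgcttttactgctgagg
Col5a1, chr2:27886175-27886424, plus strand: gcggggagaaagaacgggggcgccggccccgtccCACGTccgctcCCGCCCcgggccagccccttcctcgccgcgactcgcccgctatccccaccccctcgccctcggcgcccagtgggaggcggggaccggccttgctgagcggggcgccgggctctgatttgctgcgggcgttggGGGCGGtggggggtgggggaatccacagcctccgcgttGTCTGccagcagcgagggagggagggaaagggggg
Serpinh1, chr7:99353240-99353489, minus strand: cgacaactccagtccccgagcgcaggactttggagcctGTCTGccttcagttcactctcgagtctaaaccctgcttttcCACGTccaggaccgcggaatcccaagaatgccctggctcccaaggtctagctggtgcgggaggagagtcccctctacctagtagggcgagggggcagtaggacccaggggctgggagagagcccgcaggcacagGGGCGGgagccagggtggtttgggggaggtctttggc
P4ha1, chr10:59323046-59323295, plus strand: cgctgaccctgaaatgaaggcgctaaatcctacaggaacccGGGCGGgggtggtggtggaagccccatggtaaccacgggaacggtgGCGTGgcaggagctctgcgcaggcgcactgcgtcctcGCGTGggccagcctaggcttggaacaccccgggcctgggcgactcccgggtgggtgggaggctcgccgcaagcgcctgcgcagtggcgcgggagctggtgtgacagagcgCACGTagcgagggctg
In the gene's own direction, Col3a1 held a TATA match starting 117 bases before the start and had a CAGAC match on each strand. Col5a1 held GC matches on both strands, 1 CAGAC and 1 hypoxia core match. Serpinh1 held 1 match each to the GC box, CAGAC and the hypoxia core. P4ha1, a known hypoxia-responsive gene, held 3 hypoxia core matches upstream. Such matches are frequent: of 32851 windows of 300 bases, 13.6% held TATAAA, 37.4% CCAAT, 35.7% GGGCGG, 49.6% CAGAC and 43.8% a hypoxia core. The heat shock element (GAANNTTC, in 7.86% of windows) had no match in any of the 7 windows of these genes, and that says only that these letters are not there.

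TAC hearts of both genotypes held more fibrillar collagen transcripts than sham hearts. In KO hearts 7 of the 10 genes rose and none fell, and in WT hearts 8 rose and none fell (edgeR quasi-likelihood test, Benjamini-Hochberg adjusted over 15651 genes, threshold 0.05). Of all genes tested, 6.73% rose and 6.26% fell after TAC in KO, and 6.91% rose and 5.3% fell in WT. The median log2 difference of the 10 genes was 0.72 in KO and 1.25 in WT hearts, against -0.01 and 0.00 over all genes. KO TAC and KO sham libraries did not overlap for 6 of the 10 (21.8% of all genes), and WT TAC and WT sham libraries for all 10 (30.6% of all genes). After TAC, 5 chains were lower in KO than in WT hearts and none of the 10 was higher.

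**Figure D1:**
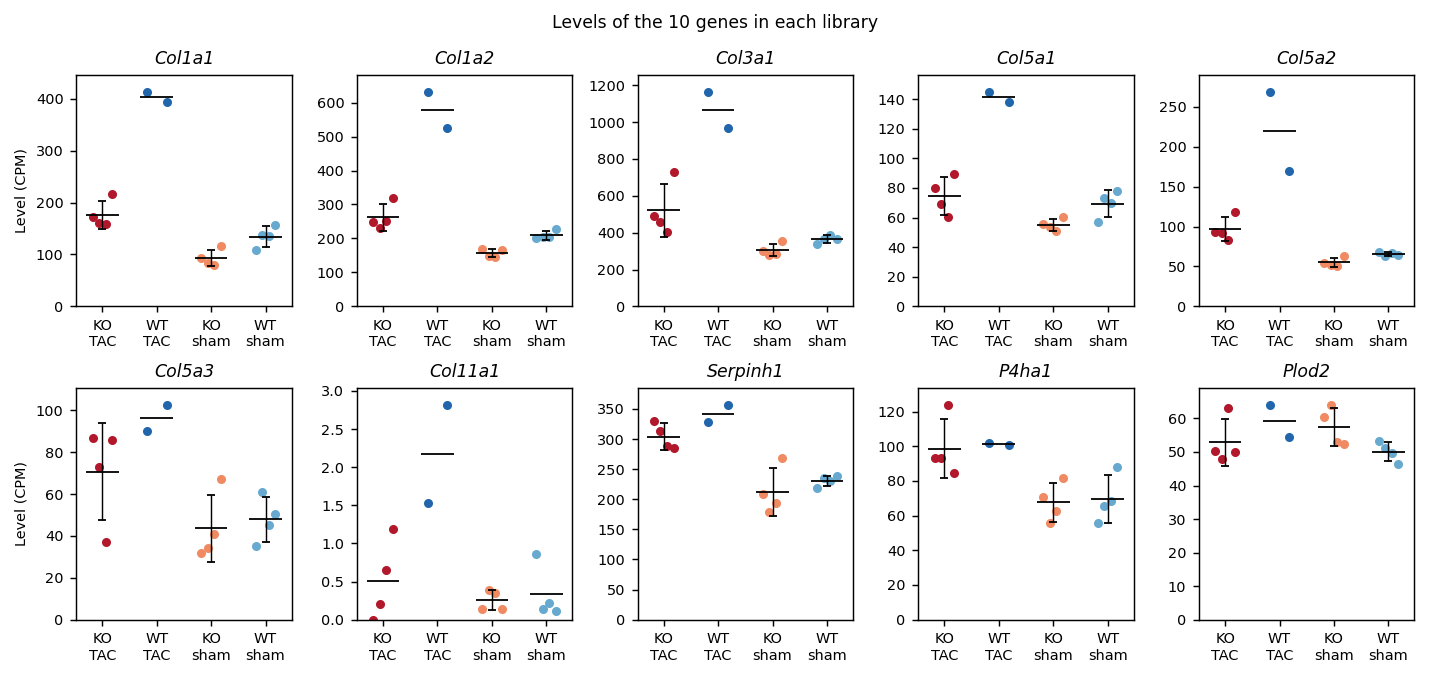
Level of each of the 10 genes in every library, in CPM on a linear axis, with the groups KO TAC, WT TAC, KO sham and WT sham from left to right. Points are libraries, the horizontal line is the group mean, and the bar is 1 SD (not drawn for the 2 WT TAC libraries or where it would reach below 0). For Col1a1 and Col1a2 both WT TAC libraries sit above every other library, while for Serpinh1 and P4ha1 the KO TAC and WT TAC libraries overlap.

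Type I collagen, the main fibre of the heart's matrix, is a trimer of chains from Col1a1 and Col1a2, with more of the alpha1 chain. Col1a1 (ENSMUSG00000001506.10, GRCm38 chromosome 11, 94936224 to 94953042, plus strand) stood at 172, 160, 158 and 216 CPM in KO TAC hearts, against 93.2, 84.3, 79.2 and 116 CPM in KO sham hearts. In WT hearts it was 414 and 395 CPM after TAC, against 108, 138, 135 and 157 CPM after sham surgery. The TAC and sham libraries did not overlap in either genotype. Col1a1 rose 1.90-fold in KO (log2 0.92 ± 0.13, SE, edgeR adjusted p = 0.00128) and 3.002-fold in WT hearts (1.59 ± 0.15, adjusted p = 1.01e-05).

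Col1a2 (ENSMUSG00000029661.16, chromosome 6, 4504814 to 4541544, plus strand) rose as well. It stood at 248, 230, 252 and 318 CPM in KO TAC, against 169, 149, 144 and 166 CPM in KO sham hearts. In WT hearts the values were 632 and 524 CPM after TAC and 201, 204, 204 and 228 CPM after sham surgery, again without overlap. The rise was 1.67-fold in KO (log2 0.74 ± 0.10, edgeR adjusted p = 0.000842) and 2.76-fold in WT (1.46 ± 0.11, adjusted p = 1.91e-06). A same-strand transcript inside the gene, Gm43921, held at most 5 counts in a library.

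Type III collagen is a trimer of 1 kind of chain, found beside type I in distensible tissues. Col3a1 (ENSMUSG00000026043.18, chromosome 1, 45311538 to 45349706, plus strand) had the largest CPM of the 10 in every library. It held 492, 457, 404 and 732 CPM in KO TAC, against 302, 280, 286 and 354 CPM in KO sham hearts. WT hearts held 1165 and 966 CPM after TAC and 340, 365, 389 and 365 CPM after sham surgery. Neither genotype showed overlap, and KO TAC 4 was the highest KO library. Col3a1 rose 1.70-fold in KO (log2 0.77 ± 0.14, edgeR adjusted p = 0.00423) and 2.92-fold in WT (1.55 ± 0.17, adjusted p = 3.51e-05).

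Type V collagen is a minor component that starts type I fibrils and limits their diameter. Its usual trimer joins the chains of Col5a1 and Col5a2, and Col5a3 encodes a further chain of narrower distribution. Col5a2 (ENSMUSG00000026042.16, chromosome 1, 45374321 to 45503282, minus strand, the neighbour of Col3a1) was 93.1, 91.7, 83.4 and 119 CPM in KO TAC, against 54.6, 51.9, 50.7 and 62.9 CPM in KO sham hearts. In WT hearts it was 269 and 170 CPM after TAC, against 67.7, 63.2, 67.5 and 64.1 CPM after sham surgery, with WT TAC 1 far above WT TAC 2. It rose 1.76-fold in KO (log2 0.81 ± 0.13, edgeR adjusted p = 0.00211) and 3.34-fold in WT hearts (1.74 ± 0.15, adjusted p = 3.86e-06). The WT difference was 1.37 without the library labelled WT TAC 1 (adjusted p = 8.19e-05).

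Col5a1 (ENSMUSG00000026837.15, chromosome 2, 27886425 to 28039514, plus strand) had lower estimates of the TAC difference than Col5a2. Its KO TAC values of 80.1, 69.4, 60.1 and 89.8 CPM overlapped the KO sham values of 55.7, 53.7, 50.9 and 60.6 CPM at 1 library. In WT hearts 145 and 138 CPM after TAC lay above 57.1, 73.0, 70.0 and 77.8 CPM after sham surgery. The rise was 1.35-fold in KO (log2 0.44 ± 0.11, edgeR adjusted p = 0.0239) and 2.04-fold in WT (1.03 ± 0.13, adjusted p = 0.00017). The KO call was lost without any one of KO sham 1, 2 or 3 or KO TAC 1 or 4 (adjusted p = 0.0579 to 0.0847), on coding counts alone (adjusted p = 0.0713) and with age as a term (adjusted p = 0.113).

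Col5a3 (ENSMUSG00000004098.7, chromosome 9, 20770050 to 20815067, minus strand) had a wide spread in both KO groups (SD 23.2 CPM around 70.7 in KO TAC and 16.1 CPM around 43.6 in KO sham). It was 86.8, 73.1, 37.1 and 85.7 CPM in KO TAC, against 32.0, 34.2, 41.1 and 67.1 CPM in KO sham hearts. KO TAC 3 was the lowest of its group and KO sham 4 the highest of its group, the same libraries that stood apart in Arntl, and the part of that difference in the result was not tested. With all libraries the KO estimate was 0.69 ± 0.26 on the log2 scale, short of the threshold (edgeR adjusted p = 0.0877). Without both libraries it was 1.19 and passed (adjusted p = 0.000588), and it also passed without KO sham 4 alone (0.97, adjusted p = 0.0181) or KO TAC 3 alone (0.91, adjusted p = 0.0148). WT hearts held 90.1 and 103 CPM after TAC, against 35.2, 61.1, 45.4 and 50.5 CPM after sham surgery, a 2.00-fold rise (edgeR adjusted p = 0.041). That call was lost without either WT TAC library (adjusted p = 0.153 without WT TAC 1 and 0.139 without WT TAC 2), and also without any one of WT sham 1, 3 or 4, KO sham 3 or KO TAC 2 (adjusted p = 0.0521 to 0.087), with age as a term (adjusted p = 0.157) and in DESeq2 (adjusted p = 0.0504).

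Type XI collagen, built partly from Col11a1, is a close relative of type V best known from cartilage. Col11a1 (ENSMUSG00000027966.20, chromosome 3, 114030540 to 114220718, plus strand) was barely counted, with 125 counts over the 14 libraries. There were 0, 3, 12 and 18 counts in KO TAC, against 2, 5, 5 and 2 in KO sham hearts, and the 0 in KO TAC 1 allows up to 0.277 CPM (3 counts, counting error only). WT hearts held 20 and 38 counts after TAC, against 11, 3, 4 and 2 after sham surgery. The edgeR log2 difference was 1.083 ± 0.788 in KO (adjusted p = 0.382) and 2.87 ± 0.71 in WT (adjusted p = 0.015). The WT call was lost without WT TAC 2 (adjusted p = 0.109) and held without WT TAC 1 (adjusted p = 0.0467).

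The chaperone gene Serpinh1 (ENSMUSG00000070436.12, chromosome 7, 99345376 to 99353239, minus strand) rose in both genotypes. It was 331, 314, 288 and 284 CPM in KO TAC, against 209, 178, 194 and 269 CPM in KO sham hearts. In WT hearts it was 328 and 357 CPM after TAC, against 219, 235, 230 and 238 CPM after sham surgery. No TAC library lay within the sham range of its genotype, and KO sham 4 was the highest of its group. The rise was 1.43-fold in KO (log2 0.52 ± 0.10, edgeR adjusted p = 0.00545) and 1.48-fold in WT (0.57 ± 0.12, adjusted p = 0.00601).

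P4ha1 (ENSMUSG00000019916.14, chromosome 10, 59323296 to 59373304, plus strand) encodes a catalytic subunit of prolyl 4-hydroxylase. Its values were 93.4, 93.1, 124 and 84.5 CPM in KO TAC, against 70.8, 55.7, 62.6 and 81.7 CPM in KO sham hearts. They were 102 and 101 CPM in WT TAC, against 55.8, 65.6, 68.5 and 88.3 CPM in WT sham hearts. The groups did not overlap in either genotype. The difference was 1.46-fold in KO, which passed (log2 0.54 ± 0.14, edgeR adjusted p = 0.0243), and 1.45-fold in WT, which did not (0.54 ± 0.17, adjusted p = 0.0531). The KO call was lost without any one of KO sham 1, 2 or 3 or KO TAC 3 (adjusted p = 0.0518 to 0.0862) and with age as a term (adjusted p = 0.132), and the WT difference passed without any one of WT sham 4, KO sham 2, KO sham 4 or KO TAC 3 (adjusted p = 0.0154 to 0.0488) and in DESeq2 (adjusted p = 0.0297).

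Plod2 (ENSMUSG00000032374.14, chromosome 9, 92542223 to 92608428, plus strand) encodes the lysyl hydroxylase that acts on the telopeptides and so sets the type of crosslink. It did not pass in either genotype. KO TAC hearts held 50.4, 48.0, 63.1 and 49.9 CPM, against 60.5, 63.9, 53.0 and 52.3 CPM in KO sham hearts (log2 -0.12, 95% interval -0.32 to 0.09, edgeR adjusted p = 0.443). WT TAC hearts held 64.0 and 54.4 CPM, against 53.2, 51.1, 49.7 and 46.3 CPM in WT sham hearts (log2 0.24, interval -0.01 to 0.49, adjusted p = 0.205). An antisense transcript, Gm38391, held 17 to 42 counts in a library, and the strand setting of the counting is not given in the sources used here.

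**Figure D2:**
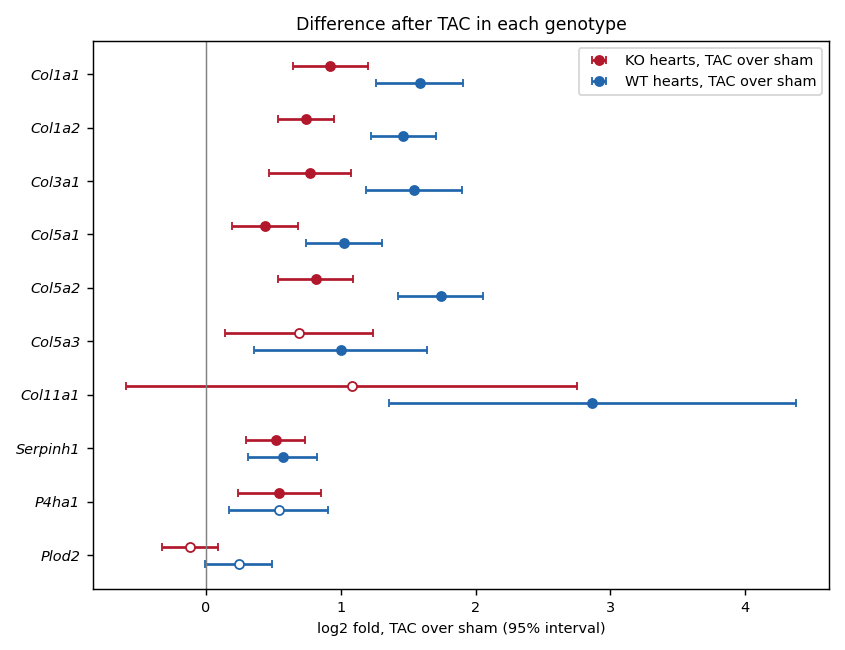
Fitted log2 fold of TAC over sham for each gene in KO hearts (upper point of each pair) and WT hearts (lower point), with 95% intervals. Filled points passed an adjusted p of 0.05. For Col1a1, Col1a2, Col3a1 and Col5a2 the WT estimates lie between 1.46 and 1.74 and the KO estimates between 0.74 and 0.92, while Serpinh1 and P4ha1 lie between 0.52 and 0.57 in both genotypes.

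All KO calls for TAC ended under 2 alternatives. With the 10-week libraries alone, which leaves 2 KO sham libraries, none of the 10 genes passed and 15 genes passed in all. The log2 differences of the 5 abundant chains Col1a1, Col1a2, Col3a1, Col5a1 and Col5a2 were then 0.42 to 0.86. With the share of reads outside features as a term none of all genes passed, and the same chains differed by 0.41 to 0.79. That share did not overlap between the KO TAC and KO sham libraries, so within KO hearts it and TAC cannot be told apart. The WT calls of Serpinh1 (log2 0.56, adjusted p = 0.0654) and Col5a3 (adjusted p = 0.185) were also lost with that term. Without the library labelled WT TAC 1, 7 of the 8 WT calls held by edgeR, with log2 differences of 1.55 for Col1a1, 1.32 for Col1a2, 1.40 for Col3a1, 0.99 for Col5a1, 1.37 for Col5a2, 3.24 for Col11a1 and 0.63 for Serpinh1 (adjusted p = 7.46e-05 to 0.0467), and that of Col5a3 was lost.

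After TAC, Col1a1, Col1a2, Col3a1, Col5a1 and Col5a2 were lower in KO than in WT hearts and none of the 10 genes was higher (1.11% of all genes were lower and 0.377% higher). KO TAC levels averaged 177 CPM ± 27.0 for Col1a1, 262 ± 38.8 for Col1a2 and 521 ± 145 for Col3a1 (SD, n = 4), against 404 ± 13.4, 578 ± 76.5 and 1065 ± 141 CPM in WT TAC hearts (n = 2). The folds of KO over WT were 0.437 for Col1a1 (log2 -1.19 ± 0.15, edgeR adjusted p = 0.00105), 0.454 for Col1a2 (-1.14 ± 0.11, adjusted p = 0.000146) and 0.489 for Col3a1 (-1.03 ± 0.17, adjusted p = 0.00594). For Col5a2 and Col5a1 they were 0.441 (-1.18 ± 0.15, adjusted p = 0.00105) and 0.528 (-0.92 ± 0.13, adjusted p = 0.00282). By their labels, all 4 KO TAC libraries lay below both WT TAC libraries for 7 genes, these 5 with Col5a3 and Col11a1, against 21.8% of all genes without overlap.

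Without the library labelled WT TAC 1, 4 of the 5 chains still passed, with log2 differences of -1.16 for Col1a1, -0.998 for Col1a2, -0.89 for Col5a1 and -0.81 for Col5a2. Col3a1 then stood at -0.89 and did not pass (edgeR adjusted p = 0.104), and it did not pass either when only the TAC libraries were fitted (-1.03, adjusted p = 0.0898). Without WT TAC 1 the comparison rests on a single WT library, assumed to vary like the other groups. Leaving WT TAC 1 out does not show what the differences would be if it were a KO heart. For all 5 chains it lay above WT TAC 2 (414 and 395 CPM for Col1a1), so as a KO heart it would end the separation of the genotypes after TAC.

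The chaperone and hydroxylases did not pass between genotypes after TAC. Serpinh1 averaged 304 CPM ± 22.0 in KO TAC and 342 ± 20.001 in WT TAC hearts (log2 -0.17, 95% interval -0.43 to 0.09, edgeR adjusted p = 0.562). P4ha1 averaged 98.7 ± 17.2 and 101 ± 0.813 CPM in KO TAC and WT TAC hearts (-0.04, interval -0.41 to 0.34, adjusted p = 0.958), and Plod2 52.9 ± 6.92 and 59.2 ± 6.80 CPM (-0.16, interval -0.41 to 0.09, adjusted p = 0.574). These intervals do not show that the genotypes are alike. Col5a3 was at 0.731-fold (adjusted p = 0.532) and Col11a1 at a log2 difference of -1.98 (adjusted p = 0.166).

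After sham surgery none of the 10 genes passed between KO and WT (edgeR, 0.313% of all genes lower). Of the 10, 3 had an unadjusted p under 0.05, against 2817 of the 15651 genes tested. Col1a1 averaged 93.1 CPM ± 16.2 in KO sham and 134 ± 19.97 CPM in WT sham hearts (log2 -0.53 ± 0.13, adjusted p = 0.0609, n = 4 each). Col1a2 averaged 157 ± 12.5 and 209 ± 12.5 CPM in KO sham and WT sham hearts (-0.41 ± 0.10, adjusted p = 0.0555), with every KO sham library below every WT sham library. Of the 10 genes only Col1a2 and Col5a2 had no overlap here (11.5% of all genes). DESeq2 called 2 genes, Col1a1 (adjusted p = 0.00701) and Col1a2 (adjusted p = 0.00519). The edgeR call of Col1a1 also changed without WT sham 1 (adjusted p = 0.0282) or KO sham 4 (adjusted p = 0.0425), and that of Col1a2 without any one of WT sham 1, WT TAC 1, WT TAC 2 or KO TAC 4 (adjusted p = 0.033 to 0.0425).

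**Figure D3:**
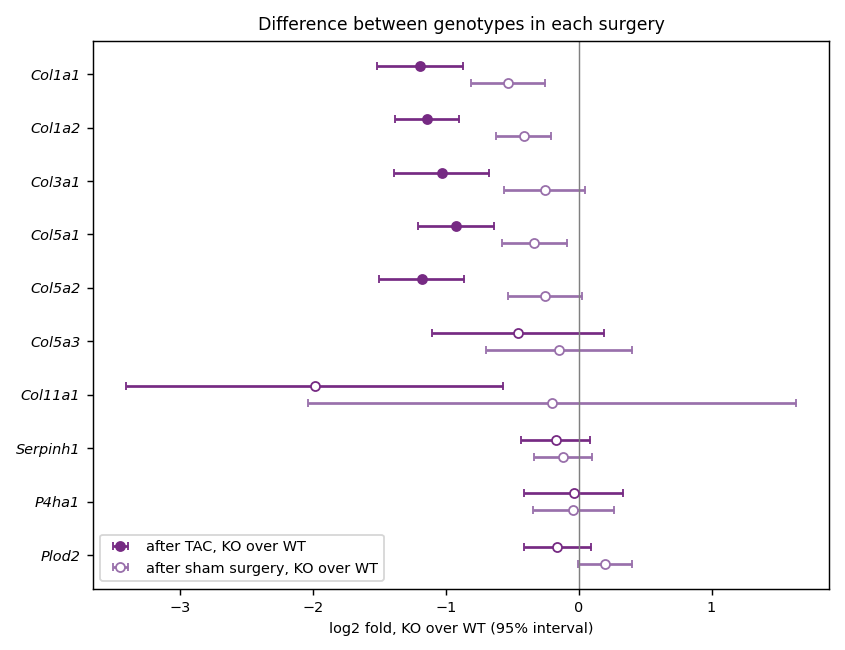
Fitted log2 fold of KO over WT for each gene after TAC (upper point of each pair) and after sham surgery (lower point), with 95% intervals. Filled points passed an adjusted p of 0.05. The 5 filled points, all after TAC, lie between -1.19 and -0.92, and the sham estimates of the same genes between -0.53 and -0.25.

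Whether TAC changed a gene by a different amount in KO and WT hearts was tested as an interaction, and none of the 10 genes passed (edgeR, 0.0192% of all genes lower). The difference of the effects was negative, that is smaller in KO, for 9 of 10 genes. It had an unadjusted p under 0.05 for 6 of the 10, against 1022 of the 15651 genes tested. The smallest adjusted p was that of Col1a2 (log2 -0.73 ± 0.15, interval -1.05 to -0.40) and Col5a2 (-0.93 ± 0.20, interval -1.35 to -0.50), 0.225 for each. DESeq2 called both (adjusted p = 0.0151 and 0.019). With edgeR, Col5a2 passed without WT TAC 2 (adjusted p = 0.00679), and Col1a2 and Col3a1 passed without KO TAC 4 (adjusted p = 0.0449 each). Without the library labelled WT TAC 1 the estimates were -0.58 for Col1a2 and -0.55 for Col5a2. Serpinh1 (log2 -0.05, interval -0.39 to 0.29) and P4ha1 (0.00, interval -0.48 to 0.49) had estimates near 0.

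Ratios of gene counts within a library do not depend on library size. They are not scaled for gene length, so they serve to compare groups and do not give the proportion of 2 transcripts. In all, 8 ratios were tested for TAC against sham and for KO against WT, with exact two-sided permutation tests that kept the other factor fixed (1050 relabellings, smallest p = 0.000952) and adjustment over the 16 tests. Of these, 3 passed for TAC and 1 for genotype. Col1a1 to Col1a2, the chains of type I, averaged 0.674 ± 0.0319 in KO TAC, 0.704 ± 0.07 in WT TAC, 0.591 ± 0.0718 in KO sham and 0.641 ± 0.0691 in WT sham hearts (SD, n = 4, 2, 4 and 4). The difference after TAC did not pass (log2 0.17, exact permutation p = 0.0524, adjusted p = 0.14), nor did that of genotype (-0.09, adjusted p = 0.335).

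The type V chains did not keep their ratio. Col5a1 to Col5a2 was 0.860, 0.757, 0.721 and 0.757 in KO TAC, against 1.02, 1.03, 1.01 and 0.964 in KO sham hearts. It was 0.539 and 0.816 in WT TAC, against 0.844, 1.15, 1.04 and 1.21 in WT sham hearts. Every TAC library lay below every sham library of its genotype (log2 -0.52, exact permutation p = 0.000952, the smallest possible, adjusted p = 0.00508), and the difference was -0.37 without the library labelled WT TAC 1 (adjusted p = 0.0152). A same-strand transcript inside Col5a2, Gm38211, held 9 to 48 counts in a library. Col5a3 to Col5a2 did not pass for TAC (log2 -0.40, adjusted p = 0.333), nor did Col11a1 to Col5a1 (0.87, adjusted p = 0.392).

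Serpinh1 per Col1a1, a chaperone to client ratio, passed for both factors. It was 1.92, 1.96, 1.82 and 1.32 in KO TAC, against 0.794 and 0.904 in WT TAC hearts. After sham surgery it was 2.25, 2.11, 2.45 and 2.32 in KO, against 2.02, 1.71, 1.70 and 1.52 in WT hearts. Every KO library exceeded every WT library of the same surgery (log2 0.72, exact permutation p = 0.000952, adjusted p = 0.00508), by 1.03 after TAC and 0.40 after sham surgery. Between genotypes Serpinh1 itself differed by log2 -0.17 after TAC and -0.12 after sham surgery, and Col1a1 by -1.19 and -0.53. The genotype difference of the ratio thus mostly repeats that of Col1a1. WT TAC 1 held the lowest ratio, so as a KO heart it would end the separation after TAC. Every TAC library lay below every sham library of its genotype (-0.71, adjusted p = 0.00508), by 0.40 in KO and 1.03 in WT hearts. Both passed without the library labelled WT TAC 1 (adjusted p = 0.0152 each).

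Plod2 per Serpinh1 was lower after TAC, averaging 0.175 ± 0.0314 in KO TAC and 0.174 ± 0.03 in WT TAC, against 0.279 ± 0.0675 in KO sham and 0.218 ± 0.02 in WT sham hearts (log2 -0.49, exact permutation adjusted p = 0.0229, n = 4, 2, 4 and 4). The groups overlapped within each genotype, and the call was lost without WT TAC 2 (adjusted p = 0.08). P4ha1 per Serpinh1 showed no difference past the threshold (TAC 0.00, adjusted p = 0.988, and genotype 0.11, adjusted p = 0.492). Col3a1 per Col1a1 was higher in KO by 0.21 and did not pass (exact permutation p = 0.0324, adjusted p = 0.104). With the 10-week libraries alone, which allow fewer relabellings, no ratio passed (smallest adjusted p = 0.0889 by exact permutation, for Col5a1 to Col5a2 after TAC and Serpinh1 to Col1a1 between genotypes).

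**Figure D4:**
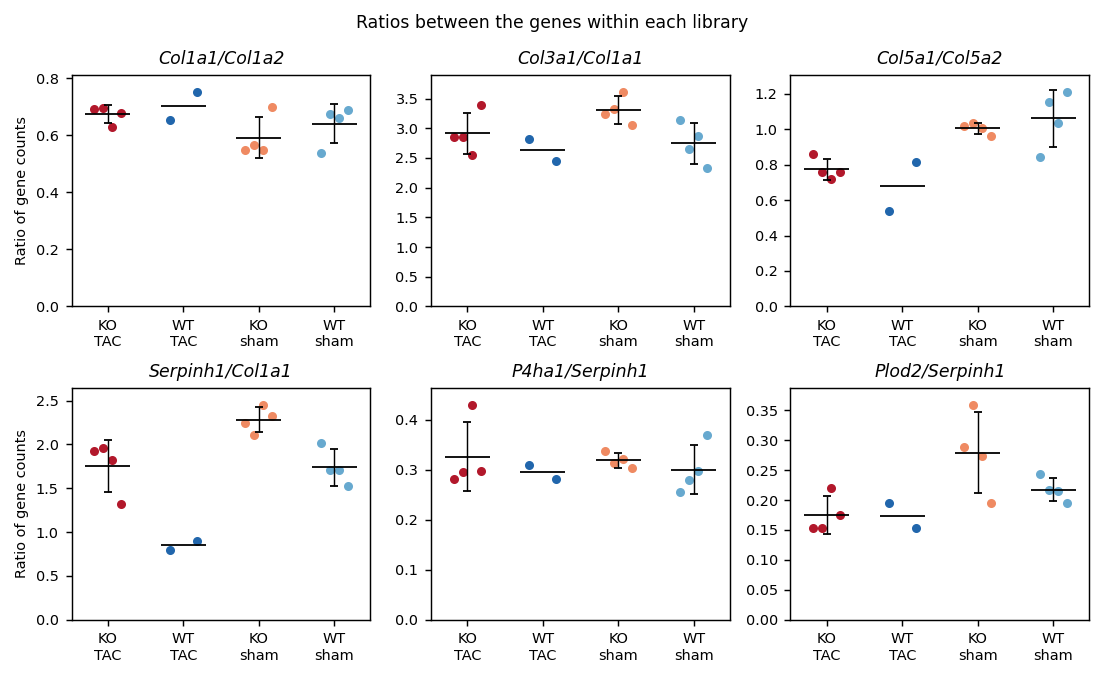
Ratios of gene counts in every library for 6 of the 8 gene pairs tested, with the groups KO TAC, WT TAC, KO sham and WT sham from left to right. Points are libraries, lines are means and bars 1 SD (not drawn for the 2 WT TAC libraries). Serpinh1 per Col1a1 is 0.794 and 0.904 in WT TAC and 1.32 to 2.45 elsewhere, and Col5a1 per Col5a2 is lower in the TAC groups.

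The deposited counts are split into coding and untranslated parts, which allows the untranslated share of each gene's counts to be compared. It rose after TAC for 3 chains, Col1a2, Col3a1 and Col5a2. Over all genes pooled it was 33.9% ± 0.633 in KO TAC and 33.7% ± 0.671 in WT TAC (SD, n = 4 and 2). It was 34.0% ± 0.294 in KO sham and 34.1% ± 1.48 in WT sham libraries (SD, n = 4 each). The pooled share does not show how many single genes shift. Genes other than those studied here were not tested, so whether the rise is particular to these chains is not known. For Col1a2 the share was 16.2%, 16.1%, 21.4% and 19.2% in KO TAC, against 11.0%, 12.4%, 13.95% and 13.6% in KO sham hearts. In WT hearts it was 15.8% and 20.4% after TAC, against 15.5%, 11.8%, 11.1% and 11.5% after sham surgery. No TAC library overlapped the sham range of its genotype, although WT sham 1, the library with the largest share over all genes (36.2%), came close.

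The differences after TAC were 5.57 percentage points for Col1a2 (exact permutation p = 0.000952, adjusted p = 0.00952 over 20 tests), 4.93 for Col5a2 (adjusted p = 0.00952) and 1.75 for Col3a1 (adjusted p = 0.0254). Col5a2 held 12.1% ± 2.72 in KO TAC and 13.96% ± 2.56 in WT TAC, against 8.12% ± 0.589 in KO sham and 8.09% ± 1.55 in WT sham hearts. Col1a1 (2.73 points, adjusted p = 0.0724) and Col5a1 (4.39 points, adjusted p = 0.0524) did not pass, and both passed without WT sham 1 (adjusted p = 0.00571 each) or WT TAC 1 (adjusted p = 0.0114 each). Col5a1 also passed without KO sham 4 (adjusted p = 0.0381). Col3a1 did not pass without any one of KO sham 1, 2 or 3 or WT sham 2, 3 or 4 (adjusted p = 0.0635 to 0.103). Serpinh1, P4ha1 and Plod2 stood at 35.3%, 40.1% and 45.0% in KO TAC, 35.4%, 38.6% and 45.4% in WT TAC, 36.0%, 40.1% and 43.8% in KO sham and 36.5%, 40.2% and 44.7% in WT sham hearts, and none of the 3 passed. No gene passed between KO and WT (smallest exact permutation p = 0.396), and none passed for TAC with the 10-week libraries alone. Which transcripts carry these counts was not tested, and of the calls above for TAC and genotype, 1 changed on coding counts alone, that of Col5a1 in KO hearts.

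**Figure D5:**
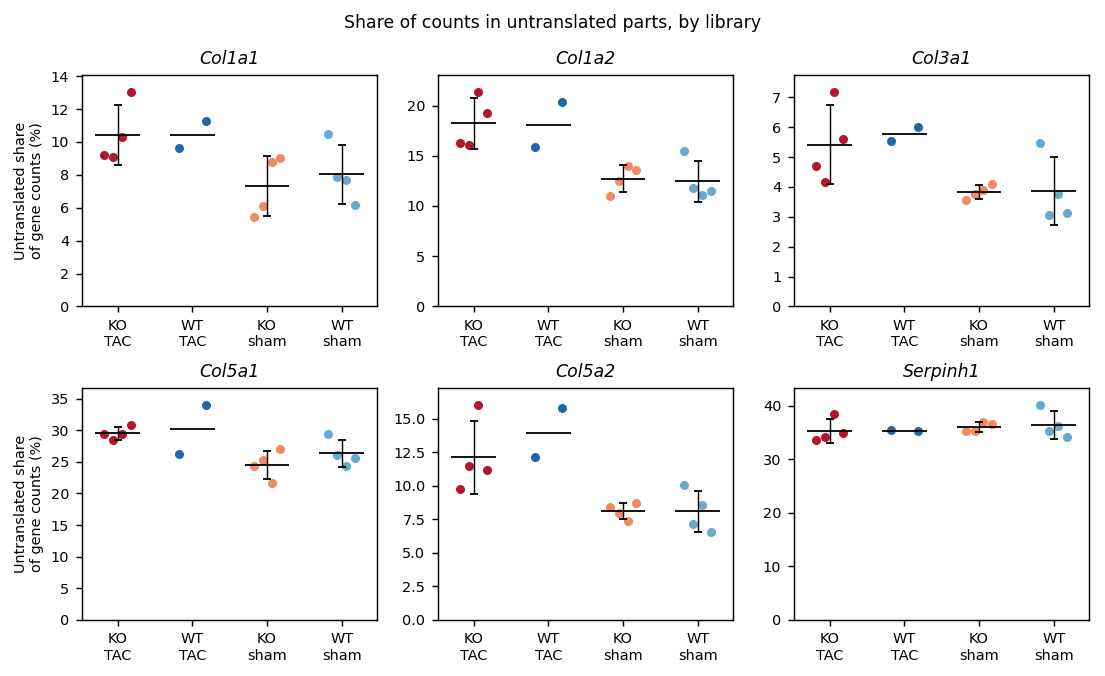
Share of each gene's counts that fell in its untranslated parts, in percent, in every library for 5 chains and Serpinh1, with the groups KO TAC, WT TAC, KO sham and WT sham from left to right. Points are libraries, lines are means and bars 1 SD (not drawn for the 2 WT TAC libraries). The Col1a2 means are 18.2% and 18.1% in the TAC groups and 12.7% and 12.5% in the sham groups, and the Serpinh1 group means lie between 35.3% and 36.5%.

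Levels of different genes were compared as CPM per kilobase of annotated exon. Serpinh1 was highest in all groups, at 125 ± 9.01 in KO TAC, 140 ± 8.19 in WT TAC, 87.1 ± 16.3 in KO sham and 94.4 ± 3.56 in WT sham hearts. Col3a1 came next at 53.1 ± 14.8, 109 ± 14.3, 31.1 ± 3.40 and 37.2 ± 2.01 in the same groups, and the ranges of the pair did not overlap in any group. Col11a1 was lowest, at 0.171 ± 0.071 in WT TAC hearts. Col1a1, P4ha1 and Col1a2 followed Col3a1 in KO TAC hearts (26.9, 24.0 and 21.1) with overlapping neighbours, whereas in WT TAC hearts Col1a1 (61.6) and Col1a2 (46.5) stood clear of P4ha1 (24.6). Between Col5a1, Col5a2, Col5a3 and Plod2 neighbours overlapped in KO TAC and WT sham hearts.

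The order of the type I chains depends on the length used. Per exon length Col1a1 to Col1a2 was 1.28 ± 0.0603 in KO TAC, 1.33 ± 0.132 in WT TAC, 1.12 ± 0.136 in KO sham and 1.21 ± 0.131 in WT sham hearts. With coding counts per coding length it was 0.697 ± 0.0173, 0.728 ± 0.0913, 0.592 ± 0.0686 and 0.636 ± 0.0667 in these groups. The annotated exons of Col1a2 cover 12426 bases and its coding part 4116, against 6563 and 4359 for Col1a1. Col3a1 also passed Serpinh1 in WT TAC hearts on the coding scale (229 ± 31.1 and 177 ± 10.6 coding CPM per kilobase).

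Other genes of the collagen pathway, from lists chosen with earlier results of these data known, moved less uniformly. Of 18 genes of collagen folding and modification tested, not all of them enzymes, 4 rose and 1 fell after TAC in KO hearts and 4 rose and 1 fell in WT hearts (edgeR). P3h2, a prolyl 3-hydroxylase, rose 1.68-fold in KO and 2.03-fold in WT, and P3h3 1.23-fold in KO and 1.52-fold in WT. Plod1 and Plod3, the other lysyl hydroxylases, rose 1.26-fold and 1.32-fold in KO and did not pass in WT (adjusted p = 0.105 and 0.0681). P4hb, the partner subunit of prolyl 4-hydroxylase, rose 1.23-fold in WT, and P4ha3 rose in WT to 0.785 ± 0.567 CPM, against 0.0582 ± 0.0461 CPM in WT sham hearts. P3h4 was 0.718-fold in KO and 0.674-fold in WT hearts after TAC. P3h3 was the 1 gene of this list that passed between genotypes after TAC, at 0.627-fold in KO (adjusted p = 0.0037). The list's median log2 difference was 0.13 in KO and 0.24 in WT for TAC, and -0.21 for KO over WT after TAC. When the library labelled WT TAC 1 was left out, 3 enzymes (P3h2, P3h3 and P4ha3) rose and none fell in WT hearts, and P3h3 still passed between genotypes (log2 -0.77, edgeR adjusted p = 0.0184).

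Of 13 genes of procollagen export and propeptide processing, 3 rose and 3 fell after TAC in KO and 3 rose and 1 fell in WT hearts. Adamts2, the main procollagen N-proteinase, rose 1.70-fold in KO and 2.44-fold in WT. Pcolce, an enhancer of C-propeptide removal, rose 1.53-fold and 1.78-fold, and its relative Pcolce2 1.28-fold and 1.35-fold in KO and WT. Mia2, a cargo receptor gene for large secretory cargo, was 0.740-fold and 0.708-fold. After TAC, Adamts2 (0.528-fold, edgeR adjusted p = 0.0037) and Pcolce (0.631-fold, adjusted p = 0.00734) were lower in KO than in WT hearts, and Pcolce was also lower in KO after sham surgery (0.733-fold, adjusted p = 0.042). The list's median log2 difference was 0.05 in KO, 0.08 in WT and -0.11 between genotypes after TAC. With WT TAC 1 left out, Adamts2 and Pcolce rose and Mia2 fell in WT hearts. Between genotypes Adamts2 (log2 -0.82, edgeR adjusted p = 0.072) and Pcolce (-0.49, adjusted p = 0.163) then did not pass, and Bmp1, a procollagen C-proteinase, did (-0.90, adjusted p = 0.0328, against 0.0552 with all libraries). Among the other fibrillar chains, Col2a1 and Col24a1 did not pass the filter, Col27a1 rose 1.56-fold in WT hearts (adjusted p = 0.0344) and Col11a2 did not pass.

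The next 3 lists hold genes with regulators that are known to act on fibrillar collagen, chaperone or hydroxylase genes. Of 10 TGF-beta response genes, 5 rose in KO and 6 in WT hearts after TAC, and 3 were lower in KO than in WT after TAC. Tgfb2, a ligand, rose 1.82-fold in KO and 3.33-fold in WT and was 0.476-fold in KO over WT (edgeR adjusted p = 0.00105), and Tgfb3 was 0.595-fold. Ccn2, a matricellular target, rose 2.55-fold in KO and 4.26-fold in WT and did not pass between genotypes (adjusted p = 0.157). Of 12 heat shock factor targets, 4 rose in KO and 3 in WT and none passed between genotypes after TAC, and Hspb1 rose 1.52-fold in KO and 1.67-fold in WT. Of 15 hypoxia-responsive genes none rose in either genotype, 1 fell in WT (Hk2, 0.776-fold) and none passed between genotypes after TAC. The medians after TAC in KO and WT hearts were 0.42 and 0.41 for the TGF-beta list, 0.27 and 0.21 for the heat shock list and 0.04 and 0.09 for the hypoxia list. In the fit that leaves out WT TAC 1, 3 TGF-beta genes and 1 heat shock gene (Hspb1) rose in WT hearts, Hk2 did not pass, and of the TGF-beta list Tgfb2 alone was lower in KO than in WT after TAC (log2 -0.85, edgeR adjusted p = 0.0367).

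In bulk tissue, fewer cells of a type and less RNA per cell cannot be told apart. Most activated fibroblast markers moved with the chains: 8 of 10 rose after TAC in KO and 8 in WT hearts, and 6 were lower in KO than in WT after TAC (median log2 1.63, 3.02 and -1.60). The summed level of the 10 was 460 to 679 CPM in KO TAC, 1263 to 1736 CPM in WT TAC, 265 to 332 CPM in KO sham and 284 to 397 CPM in WT sham hearts. Acta2 and Fap passed neither for TAC in WT hearts nor between genotypes after TAC. The Acta2 estimates had the opposite sign to the chains, at log2 -0.25 for TAC in WT (edgeR adjusted p = 0.601) and 0.56 for KO over WT after TAC (adjusted p = 0.338). Postn, the periostin gene, was 156, 158, 188 and 227 CPM in KO TAC hearts, against 879 and 487 CPM in WT TAC hearts. It passed the interaction test with all libraries (log2 -1.87, edgeR adjusted p = 0.0403) and not without the library labelled WT TAC 1 (-1.38, adjusted p = 0.289). With WT TAC 1 left out, 8 activated fibroblast markers rose in WT hearts and 5 were lower in KO after TAC. General fibroblast markers summed to 2208 to 2529 CPM in KO TAC, 2496 to 2836 CPM in WT TAC, 1934 to 2305 CPM in KO sham and 2057 to 2796 CPM in WT sham hearts. Of the 10, 2 rose and 1 fell in KO, 3 rose and 1 fell in WT, and 2 were lower and 1 higher in KO than in WT after TAC. In WT hearts Mfap5 (log2 2.11), Pi16 (1.16) and Lum (1.02) rose and Scara5 (-1.68) fell after TAC. After TAC, Mfap5 (log2 -1.26, edgeR adjusted p = 0.00105) and Pi16 (-0.85, adjusted p = 0.00547) were lower in KO than in WT hearts. Scara5 was higher (0.77, adjusted p = 0.0137). Pdgfra, Tcf21 and Ddr2, which mark the lineage and were named after their values were seen, did not pass in any of these 3 comparisons. Without the library labelled WT TAC 1, the log2 differences for TAC in WT hearts were 1.75 for Mfap5, 1.11 for Pi16, 0.73 for Lum and -1.43 for Scara5. Those of KO over WT after TAC were then -0.90 for Mfap5, -0.80 for Pi16 and 0.53 for Scara5. The part of the fibroblast markers in the collagen differences was not tested.

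Macrophage markers rose in 6 of 8 in KO and 5 of 8 in WT hearts (350.7 to 442 CPM summed in KO TAC, 434 to 545 in WT TAC, 235 to 325 in KO sham and 332 to 340.1 in WT sham), and none passed between genotypes after TAC. Tendon and cartilage markers, which share Comp with the activated fibroblast list, rose in 6 of 7 tested in KO and 7 of 7 in WT, and 3 were lower in KO after TAC. They summed to 35.4 to 91.6 CPM in KO TAC, 268 to 278 in WT TAC, 14.9 to 23.1 in KO sham and 12.2 to 42.1 in WT sham hearts. Of the cardiomyocyte markers, Ryr2 and Atp2a2 fell after TAC in both genotypes, 2 of 10, with Atp2a2 in WT just inside the threshold. Endothelial (1 of 7, Pecam1, higher in KO after TAC) and smooth muscle and pericyte markers (0 of 7) showed little else past the threshold. Leaving out WT TAC 1, none of the 8 macrophage markers, 5 of 7 tendon and cartilage markers and none of the 10 cardiomyocyte markers passed for TAC in WT hearts, Kcnj8 of the smooth muscle and pericyte list fell (log2 -0.55, edgeR adjusted p = 0.0356), and none of these lists had a call between genotypes after TAC. The genes called among all tested were then 512 for TAC in WT and 46 between genotypes after TAC. The part of each of these cell types in the collagen differences was not tested.

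Each gene's deviations from its group means were compared with those of all other genes tested over the 14 libraries, as a description without a test. The points share their libraries and depth. Each gene named as closest has the highest r of all tested genes outside the 10, so a high r alone does not show a relation. Col1a1 was closest to Col6a1, a chain of type VI collagen (Pearson r = 0.928), and Col5a2 to Fstl1, a secreted glycoprotein (0.937), and Igfbp7 (0.935). Col1a2 was closest to Ctsz (0.920) and Col3a1 to Ccna2 (0.892). Col5a1 was closest to Hmox1 (0.955) and Col5a3 to Ppp1r16b (0.973). Serpinh1 was closest to Frmd5 (0.956), P4ha1 to Ppp1r3b (0.917) and Plod2 to Ptgfr (0.939). Col11a1 was closest to Sfxn1 (0.947), at few counts. Among the 10 genes the highest correlation was that of Col1a1 with Col5a1 (0.875), ahead of Col3a1 with Col5a2 (0.816), a neighbouring pair on chromosome 1, and the lowest that of Col5a3 with Plod2 (-0.787).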

How the data were processed

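Mouse heart RNA was sequenced from 14 poly(A)-selected, strand-specific libraries, per the labels' protocols. The authors deposited raw counts of reads per gene, split into coding and untranslated parts. bcl2fastq 2.17.1.14, STAR 2.4.2a, Picard 2.10.3 and the mm10 build are named in the submitters' processing notes. The sources used here do not give the counter's version, annotation or strand setting. Rows that name no gene (15.3% ± 2.42 of reads outside features and 1.52% ± 0.0483 ambiguous, SD, n = 14) were left out.

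The counts were tested with edgeR 4.0.16 (R 4.3.3): TMM scaling, a minimum count of 10, quasi-likelihood fits of 1 coefficient per group over 14 libraries, and Benjamini-Hochberg adjustment over 15651 genes (36261 were not tested). The biological coefficient of variation was 11.8%. DESeq2 1.42.0 was an alternative, and the fits were tested on simulated data. Ratios (pseudocount 0.5 counts) and untranslated shares were tested by exact permutation in Python 3.11.15. Correlations used log2 CPM with a prior count of 2. Libraries of a group differed by more than sampling noise (lowest chi-square per degree of freedom 3.43), so none was merged. Of 51912 IDs, 51719 were found in the GENCODE annotation of GRCm38. Groups follow the labels. The members and lists were chosen with earlier results of these data known. Named are the 10 genes, up to 4 genes of smallest p per list and comparison, and the gene of most alike pattern per member; others were named after their values were seen. Other settings tried were another scaling, no filter, coding counts, age, the share outside features, and leaving out libraries; leaving out WT TAC 1 for the lists was added after seeing the data.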

Additional observations from a re-analysis of the deposited data

Results flagged for a closer look

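Each group of 4 libraries was examined for a highest or lowest value far from the others (gap over range above 0.829), and 6 of 54 groups had one. Chance gives about 1 in 20 for independent, normally distributed values. These groups share libraries, and the ratios share genes with the single levels, so that rate is no measure for the 6. Col1a2 stood at 227.8 CPM in WT sham 4, above the other WT sham libraries. Col11a1 stood at 0.859 CPM in WT sham 1, at 11 counts, and its ratio to Col5a1 was 0.0150 there. Plod2 stood at 63.1 CPM and the P4ha1 to Serpinh1 ratio at 0.43 in KO TAC 3, the highest of its group in both and the library that also stood apart in Arntl. The Col1a1 to Col1a2 ratio was 0.698 in KO sham 4, the highest of its group and the other library that stood apart in Arntl. The part of these libraries' difference in the values was not tested.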

How the results depend on the processing

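No paired analysis was possible because the replicate numbers follow accession order and pair no samples. None of the differences changed sign past the threshold under the settings tried. Of the 10 genes, the 7 higher after TAC in KO hearts became 0 with the 10-week libraries alone and 0 with the share of reads outside features as a term. The 0 lower in KO sham than WT sham hearts became 2 with no filter on low counts, 2 with DESeq2, 1 without KO sham 4 and KO TAC 3 and 1 when only the sham libraries were fitted. The 0 with a smaller TAC effect in KO became 3 with no filter and 2 with DESeq2. The 3 ratios past the threshold for TAC became 0 with the 10-week libraries alone, the 1 for genotype became 0 there and 2 without KO sham 4 and KO TAC 3, and the 3 untranslated shares for TAC became 0 with the 10-week libraries. Leaving out each library in turn gave 5 to 8 genes higher after TAC in KO, 6 to 9 in WT, 4 to 5 lower in KO after TAC, 0 to 2 lower in KO sham, 0 to 2 with a smaller TAC effect in KO, 2 to 3 ratios for TAC, 1 to 2 for genotype, 2 to 5 shares for TAC and 0 for genotype. Apart from the 10-week ratios and shares, where fewer libraries and relabellings remain, the cause was not tested. The 125 counts of Col11a1 limit any statement on it.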

Other observations

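In some libraries most of the 10 genes lay above their group means, and whether the genes scatter independently within a group was not tested. In KO TAC 4, 7 of them lay above the mean of their group, and the mean deviation of all 10 was 0.32 on the log2 scale, to which Col11a1, at few counts, gave 1.51 for its own. In KO sham 4, one of the libraries that stood apart in Arntl, 8 lay above, with a mean deviation of all 10 of 0.18. In WT sham 1 to 4 the numbers above were 3, 6, 4 and 7, with mean deviations of -0.01 to 0.02. KO TAC 4 held the highest value of its group for Col1a1, Col1a2, Col3a1, Col5a1 and Col5a2 but not for Serpinh1 or P4ha1. Serpinh1 deviated together with Col1a1 (Pearson r = 0.535 over 14 libraries) and hardly with Col1a2 (r = 0.0553), as a description with no test.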
